A study of Mus musculus with 12 samples.

Results

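The 10 genes described here encode amino acid transporters of the cell surface: Slc3a2, Slc7a5, Slc7a11, Slc7a1, Slc7a3, Slc6a9, Slc38a1, Slc38a2, Slc1a4 and Slc1a5. They are 10 of the 39423 genes in the count table, found by gene name, and they were chosen on measured levels in these same libraries. Their differences between conditions are therefore given as descriptions, with standard errors and without p-values. The libraries came from 3T3-L1 cells, a mouse preadipocyte line that turns into fat cells when given a hormone mix. Cells had received a control siRNA (siCtrl, NC in the labels) or an siRNA against Prmt1 (siPRMT1), the arginine methyltransferase under study. Which of the PRMT1 siRNAs was sequenced is not stated in the sources used here. All 4 groups were induced with MDI, a mix of 3-isobutyl-1-methylxanthine, dexamethasone and insulin, and mRNA was sequenced after 24 h (day 1) or 72 h (day 3), with 3 libraries in each group. The labels do not say whether these libraries came from separate cultures, so every error and p-value covers only the spread between these samples, which may be technical.

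Amino acid transporters of the plasma membrane differ in which amino acids they carry and in what drives them. Some are exchangers, which let 1 amino acid out for each that enters, and others use the sodium gradient to concentrate amino acids in the cell. Several are known targets of the amino acid response, in which ATF4, a transcription factor made when amino acids are short or the endoplasmic reticulum is under stress, binds composite C/EBP-ATF elements. Adipocytes take up amino acids for protein synthesis, for glyceroneogenesis and for lipid synthesis.

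Total counts ran from 15116462 to 42357137 per library, and siCtrl replicate 1 at 24 h was the deepest. Over genes with at least 50 counts per pair of libraries, the mean chi-square per gene was 30.8 and 50.6 for the pairs that held siCtrl replicate 3 at 24 h and 4.14 to 15.8 for every other pair of the same group, so that library stood apart from its group. Levels are given in FPKM, fragments scaled to the gene length in the count table and to library depth. Prmt1 was at 82.9, 83.4 and 91.3 FPKM in siCtrl and at 43.8, 38.6 and 41.4 in siPRMT1 at 24 h. The log2 fold change was -1.11 at 24 h (edgeR adjusted p = 0.00098) and -0.88 at 72 h. The 7 adipocyte markers summed to 147 to 153 FPKM in siCtrl and 111 to 126 in siPRMT1 at 24 h, and to 2695 to 2910 and 2104 to 2288 at 72 h. The 7 preadipocyte markers summed to 875 to 906 and 814 to 827 FPKM at 24 h and to 240 to 267 and 278 to 333 at 72 h. Single preadipocyte markers did not all follow the sum. Their log2 fold change was above 0 for 3 and below for 4 at 24 h, and above 0 for 6 and below for 1 at 72 h. The 9 markers of macrophages, endothelium, muscle and epithelium summed to no more than 3.06 FPKM in any library, and Ptprc and Myod1 had 0 counts in all 12. In bulk samples, fewer cells of a type and less RNA per cell cannot be told apart, and the part of the marker differences in the values below was not tested.

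The promoters of the members are shown first because ATF4 elements are part of what these genes are known for. RefSeq start sites on GRCm38.p6 were given for 6 of the 10 members, with 9 promoters in all. The motif TGATGNAA, the core of the C/EBP-ATF element, was searched on both strands in the 250 bases before each start site. Of 32851 mouse promoters, 3.45% held it, and the form TGATGCAA, which is contained in it, was held by 0.791%. Slc7a11 was the only matched member with a match. It held TGATGCAA beginning 66 bases before the start site and the same letters on the other strand beginning 47 bases before it, so the matches face each other. The stretch at chr3:50443633-50443699, minus strand, is printed 5′ to 3′ with both matches in capitals.
Slc7a11: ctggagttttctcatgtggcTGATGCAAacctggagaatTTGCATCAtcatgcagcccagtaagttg
The start site used for Slc7a11 lies inside the gene as the deposited table bounds it, at chr3:50364936-50499087. The same holds for Slc3a2, bounded at chr19:8706882-8723369. No match says only that these letters are absent from the 250 bases searched.

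The 100 bases directly before the start site are printed for the 4 matched members whose siPRMT1 libraries all lay above the siCtrl libraries at 24 h, and for Slc38a2, whose libraries overlapped, as did those of Slc7a11. Capitals mark CG dinucleotides. Slc6a9 had 3 start sites listed and Slc7a1 had 2, and the site nearest the 5′ end of the gene was taken. Which start site these cells used was not tested. The lines hold chr19:8713898-8713997 for Slc3a2, chr5:148399905-148400004 for Slc7a1, chr4:117835158-117835257 for Slc6a9, chr11:20332714-20332813 for Slc1a4 and chr15:96699729-96699828 for Slc38a2, all on the minus strand except Slc6a9.
Slc3a2: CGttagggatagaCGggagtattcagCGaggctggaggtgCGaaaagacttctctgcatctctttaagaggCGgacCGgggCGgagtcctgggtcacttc
Slc7a1: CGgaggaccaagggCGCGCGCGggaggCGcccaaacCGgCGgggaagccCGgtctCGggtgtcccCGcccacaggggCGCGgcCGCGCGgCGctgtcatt
Slc6a9: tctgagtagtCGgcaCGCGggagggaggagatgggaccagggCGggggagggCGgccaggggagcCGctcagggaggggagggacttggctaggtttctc
Slc1a4: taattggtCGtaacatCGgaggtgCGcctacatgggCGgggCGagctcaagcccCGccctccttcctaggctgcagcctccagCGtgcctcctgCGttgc
Slc38a2: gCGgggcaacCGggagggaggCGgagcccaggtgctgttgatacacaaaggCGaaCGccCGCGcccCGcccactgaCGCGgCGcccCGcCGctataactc
Slc7a1 had 17 CG dinucleotides in its stretch and 79% G or C, Slc38a2 had 13 and 72%, and Slc1a4, Slc3a2 and Slc6a9 had 8, 7 and 6. The median over all 32851 promoters was 3 CG dinucleotides and 55% G or C. Slc7a11 had 2 CG dinucleotides in its last 100 bases.

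At 24 h the log2 fold change of siPRMT1 against siCtrl was above 0 for 8 of the 10 members, and at 72 h it was below 0 for 7 of them. A gene met the call rule when edgeR's adjusted p over all genes tested was below 0.05 and the log2 fold change passed 0.5 in either direction. All 10 members passed the filter on low counts in every comparison. At 24 h, 5 met the rule as higher in siPRMT1 (Slc7a5, Slc7a1, Slc6a9, Slc38a1 and Slc1a4) and 0 as lower, against 1.95% higher and 1.61% lower of the 13689 genes tested. That background was 267 higher and 220 lower genes, and it moved to 504 and 369 without siCtrl replicate 3, while leaving out any other library gave 61 to 165 higher and 62 to 177 lower genes, the fewest without siPRMT1 replicate 3. All 3 siPRMT1 libraries lay above all 3 siCtrl libraries for 6 members and below them for 0, and 31.5% of all genes had no overlap. At 72 h, only Slc38a1 met the rule, as higher, against 2.84% higher and 3.8% lower of 14039 genes. The groups did not overlap for 8 members, 2 above and 6 below, against 34.9% of all genes. Because the members were chosen with these values known, nothing is read from these counts. The median log2 fold change of the members was 0.46 at 24 h and -0.21 at 72 h, beside 0.01 at both times over all genes tested.

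**Figure D1:**
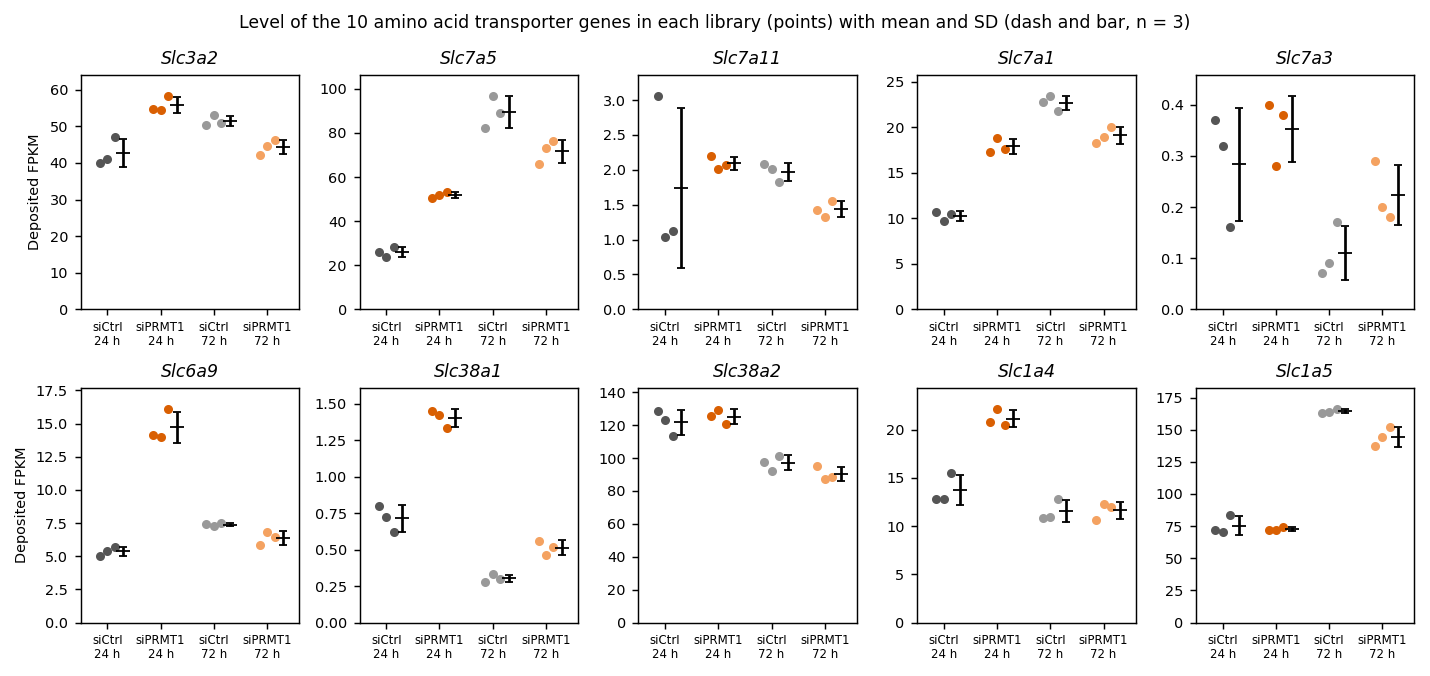
Deposited FPKM (y axis, linear from 0, a scale of its own in each panel) of the 10 transporter genes in siCtrl and siPRMT1 cells at 24 h and 72 h (x axis). Points are the 3 libraries of a group, and the dash and bar beside them are the mean and SD. The siPRMT1 points at 24 h lie above the siCtrl points at 24 h for Slc3a2, Slc7a5, Slc7a1, Slc6a9, Slc38a1 and Slc1a4, and 1 siCtrl library at 24 h stands apart for Slc7a11 at 3.06 FPKM.

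Slc3a2 and Slc7a5 encode the heavy and the light chain of a heterodimer that exchanges large neutral amino acids such as leucine. The heavy chain Slc3a2 (chr19:8706882-8723369, minus strand) carries light chains to the membrane and was at 40.02, 41.1 and 47.0 FPKM in siCtrl and 54.7, 54.4 and 58.3 in siPRMT1 at 24 h. The siPRMT1 libraries were all higher, and the log2 fold change was 0.34 ± 0.07 (SE), which is a fold of 1.26 and short of the 0.5 set for a call. By 72 h Slc3a2 was at 50.5, 53.0 and 51.1 FPKM in siCtrl and 42.2, 44.7 and 46.2 in siPRMT1. The order had turned, with all siPRMT1 libraries below and a log2 fold change of -0.22 ± 0.07.

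The light chain Slc7a5, known as LAT1 (chr8:121881146-121907686, minus strand), was at 25.8, 23.6 and 28.4 FPKM in siCtrl and 50.3, 52.0 and 53.1 in siPRMT1 at 24 h. That was a gap wider than either group's range, with a log2 fold change of 0.95 ± 0.08 and a fold of 1.93. At 72 h, siCtrl libraries stood at 82.4, 96.8 and 89.2 FPKM and siPRMT1 libraries at 65.9, 73.1 and 76.2. The siPRMT1 libraries were lower at that time, by a log2 fold change of -0.33 ± 0.08. The call at 24 h was kept in all 6 fits that left out 1 library.

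The amount of light chain mRNA per heavy chain mRNA differed more between the times than between siCtrl and siPRMT1. Slc7a5 per Slc3a2, as a ratio of FPKM, was 0.607 ± 0.035 in siCtrl and 0.928 ± 0.024 in siPRMT1 at 24 h, and 1.74 ± 0.097 and 1.62 ± 0.047 at 72 h (SD, n = 3). The libraries of the 24 h groups did not overlap in this ratio, at 0.574 to 0.644 against 0.910 to 0.956. At 72 h the ranges were 1.63 to 1.83 and 1.56 to 1.65 and did overlap. When the 6 light chains Slc7a5, Slc7a6, Slc7a7, Slc7a8, Slc7a10 and Slc7a11 were added up, the sum per Slc3a2 was 1.72 ± 0.133 in siCtrl and 1.65 ± 0.044 in siPRMT1 at 24 h, and 2.30 ± 0.098 and 2.24 ± 0.023 at 72 h. The ranges of siCtrl and siPRMT1 in that ratio overlapped at both times. The sum itself did not overlap, at 69.7 to 75.5 FPKM in siCtrl and 91.3 to 93.3 in siPRMT1 at 24 h, and at 110.6 to 125.8 and 93.3 to 104.1 at 72 h.

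Slc7a11, known as xCT, pairs with the same heavy chain and brings in cystine in exchange for glutamate, which supplies cysteine for glutathione. At 24 h it was at 3.06, 1.03 and 1.12 FPKM in siCtrl and 2.20, 2.01 and 2.07 in siPRMT1. Its siCtrl group was split by replicate 1, which lay above every siPRMT1 library while the other siCtrl libraries lay below all of them. With all libraries, the log2 fold change was 0.18 ± 0.37. Without siCtrl replicate 1 it was 0.92 and met the call rule. At 72 h, siCtrl libraries were at 2.08, 2.01 and 1.83 FPKM and siPRMT1 libraries at 1.43, 1.33 and 1.55. All siPRMT1 libraries were lower, by a log2 fold change of -0.46 ± 0.10, just short of the 0.5 needed. It passed that limit at -0.51 without siCtrl replicate 3 and at -0.53 without siPRMT1 replicate 3.

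Slc7a1 and Slc7a3 encode CAT1 and CAT3, carriers of the cationic amino acids arginine, lysine and ornithine. Slc7a1 (chr5:148327410-148399904, minus strand) was at 10.7, 9.68 and 10.5 FPKM in siCtrl and 17.3, 18.9 and 17.6 in siPRMT1 at 24 h. All siPRMT1 libraries were higher, by a log2 fold change of 0.75 ± 0.07 and a fold of 1.68. Slc7a1 at 72 h was at 22.8, 23.4 and 21.8 FPKM in siCtrl and 18.3, 19.0 and 20.1 in siPRMT1. All siPRMT1 libraries were then lower, by a log2 fold change of -0.25 ± 0.07. The call at 24 h was kept in all 6 fits that left out 1 library.

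Slc7a3 was the lowest of the 10 in every group. Its counts were between 4 and 45 per library, so its values carry a wide counting error. It was at 0.37, 0.32 and 0.16 FPKM in siCtrl and 0.40, 0.28 and 0.38 in siPRMT1 at 24 h. These overlapped, with a log2 fold change of 0.20 ± 0.31. At 72 h it was at 0.07, 0.09 and 0.17 FPKM in siCtrl and 0.29, 0.20 and 0.18 in siPRMT1, a log2 fold change of 0.90 ± 0.39 that did not meet the call rule. Of its exons on the X chromosome (chrX:101079204-101090452, minus strand), 77 bases are shared with Snx12.

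Slc6a9, the glycine transporter GLYT1 that brings in glycine with sodium and chloride, had the largest difference of the 10 at 24 h. The gene lies at chr4:117835258-117869305 on the plus strand, and 46 of its exonic bases overlap Ccdc24 on the other strand. It was at 4.98, 5.42 and 5.67 FPKM in siCtrl and 14.16, 13.96 and 16.08 in siPRMT1. The lowest siPRMT1 library was above every siCtrl library by more than the range of either group, and the log2 fold change was 1.41 ± 0.09, a fold of 2.66. Slc6a9 at 72 h was at 7.40, 7.29 and 7.47 FPKM in siCtrl and 5.81, 6.84 and 6.44 in siPRMT1. The siPRMT1 libraries were again all on 1 side, but below, at a log2 fold change of -0.22 ± 0.09. The call at 24 h was kept in all 6 fits that left out 1 library.

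Slc38a1 and Slc38a2 encode SNAT1 and SNAT2, sodium-coupled carriers of glutamine, alanine and other small neutral amino acids, and they lie near each other on chromosome 15 (chr15:96571418-96642913 and chr15:96687392-96699724, both minus strand). Slc38a1 was at 0.80, 0.72 and 0.62 FPKM in siCtrl and 1.45, 1.42 and 1.33 in siPRMT1 at 24 h. All siPRMT1 libraries were higher, by a log2 fold change of 0.91 ± 0.12. At 72 h it was at 0.28, 0.33 and 0.30 FPKM in siCtrl and 0.56, 0.46 and 0.52 in siPRMT1. It was the 1 member that met the call rule as higher at both times, with a log2 fold change of 0.76 ± 0.15 at 72 h. Without siPRMT1 replicate 1 the call at 24 h was lost on the adjusted p, with the log2 fold change at 0.86.

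Slc38a2, known to be induced when amino acids are short, was at 128.7, 123.1 and 113.6 FPKM in siCtrl and 125.8, 129.4 and 120.5 in siPRMT1 at 24 h. The groups overlapped, and the log2 fold change was -0.01 ± 0.07. Slc38a2 at 72 h was at 97.7, 92.4 and 101.5 FPKM in siCtrl and 95.1, 87.5 and 88.6 in siPRMT1. These overlapped as well, with a log2 fold change of -0.11 ± 0.07.

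Slc1a4 and Slc1a5 encode ASCT1 and ASCT2, exchangers of alanine, serine and cysteine, of which ASCT2 also carries glutamine. Slc1a4 (chr11:20302180-20332713, minus strand) was at 12.8, 12.9 and 15.6 FPKM in siCtrl and 20.8, 22.1 and 20.5 in siPRMT1 at 24 h. All siPRMT1 libraries were higher, by a log2 fold change of 0.57 ± 0.09. Its call did not hold in 4 of the 6 fits that left out 1 library, because the adjusted p was no longer below 0.05. The log2 fold change still passed 0.5, at 0.53 without siCtrl replicate 2 and at 0.56, 0.52 and 0.59 without siPRMT1 replicates 1, 2 and 3. At 72 h it was at 10.9, 10.9 and 12.8 FPKM in siCtrl and 10.63, 12.27 and 12.03 in siPRMT1. These overlapped, at a log2 fold change of 0.0033 ± 0.09.

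Slc1a5 (chr7:16781345-16798274, plus strand) was at 71.8, 70.5 and 83.9 FPKM in siCtrl and 71.9, 72.0 and 74.4 in siPRMT1 at 24 h. The groups overlapped, with a log2 fold change of -0.10 ± 0.07. At 72 h it was at 162.9, 164.0 and 165.9 FPKM in siCtrl and 137.0, 144.0 and 152.0 in siPRMT1. All siPRMT1 libraries were lower, by a log2 fold change of -0.19 ± 0.07, or 0.875 of the siCtrl level.

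**Figure D2:**
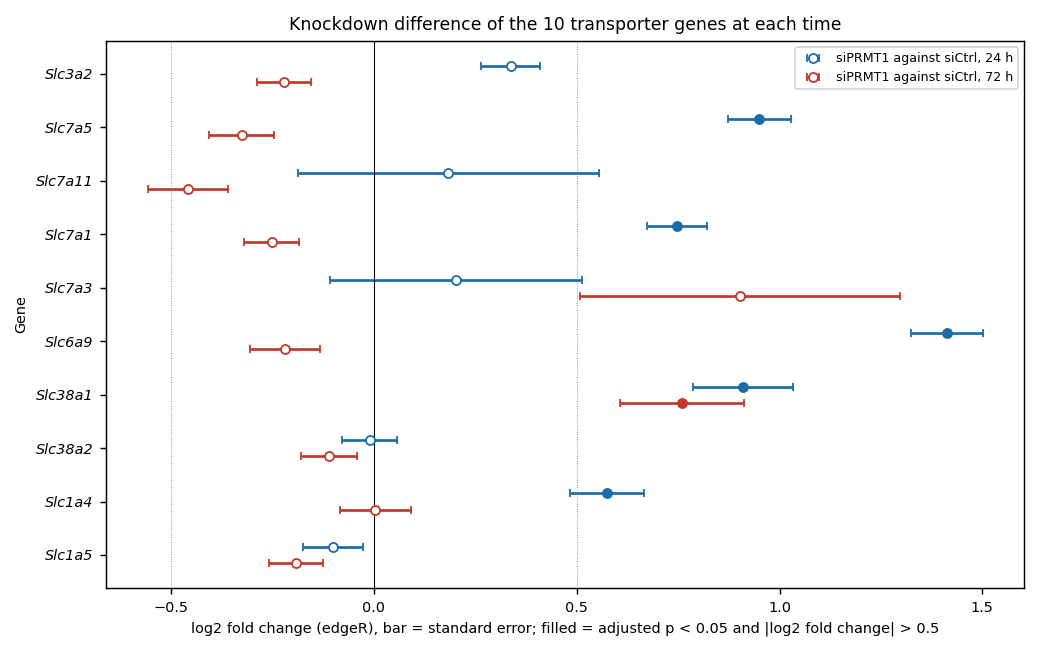
Log2 fold change of siPRMT1 against siCtrl (x axis, edgeR, bars are the standard error) for the 10 transporter genes (y axis) at 24 h in blue and 72 h in red. Filled points met the call rule, and dotted lines mark a log2 fold change of 0.5 in either direction. Slc6a9 lies farthest to the right at 24 h with 1.41, and 7 of the 10 red points lie left of 0.

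The difference between the times was fitted as 1 term, the knockdown difference at 72 h minus that at 24 h, over all 12 libraries. In that fit 5 members met the call rule, all as lower, and 9 of 10 values were negative. Over the 14612 genes tested, 8.24% met it in either direction, and without siCtrl replicate 3 at 24 h 902 genes were called higher and 1005 lower of 14978. The values were -1.61 ± 0.12 for Slc6a9, -1.25 ± 0.12 for Slc7a5, -0.98 ± 0.10 for Slc7a1, -0.55 ± 0.14 for Slc1a4 and -0.54 ± 0.10 for Slc3a2. Slc38a1, higher at both times, had -0.13 ± 0.19, and Slc1a5 and Slc38a2 had -0.07 ± 0.10 and -0.08 ± 0.09. Without siCtrl replicate 1 at 24 h, Slc7a11 met the rule at -1.35 against -0.62 with all libraries, while Slc3a2 and Slc1a4 no longer did, at -0.49 and -0.49. Slc1a4 also lost it without siCtrl replicate 3 at 72 h and without siPRMT1 replicate 1 at 72 h, at -0.46 and -0.49. Leaving out siCtrl replicate 3 at 24 h, the library that stood apart, changed no member's call in any comparison. The 24 h values without it ranged from -0.09 for Slc7a11 to 1.45 for Slc6a9.

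Between 24 h and 72 h of induction the members went different ways in control cells. In siCtrl, 3 members met the call rule as higher at 72 h (Slc7a5, Slc7a1 and Slc1a5) and 2 as lower (Slc38a1 and Slc7a3), against 22.7% higher and 20.4% lower of all genes tested. Slc7a5 went from 25.9 ± 2.38 to 89.5 ± 7.21 FPKM (SD, n = 3), a fold of 3.29. Slc7a1 went from 10.3 ± 0.546 to 22.7 ± 0.796 and Slc1a5 from 75.4 ± 7.36 to 164.3 ± 1.54. In the other direction, Slc38a1 went from 0.713 ± 0.090 to 0.303 ± 0.025. The call of Slc7a3 rested on counts of 4 to 45 and was lost without siCtrl replicate 1 at 24 h, and without siCtrl replicate 1 or 2 at 72 h. Slc7a11 met the rule as higher without siCtrl replicate 1 at 24 h, at a log2 change of 0.79 against 0.08 with it.

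In siPRMT1 cells, 1 member met the rule as higher at 72 h than at 24 h (Slc1a5) and 5 as lower (Slc6a9, Slc38a1, Slc1a4, Slc7a3 and Slc7a11), against 19% higher and 17.4% lower of all genes tested. Both courses share their libraries with the knockdown comparisons above. Slc6a9 went from 14.7 ± 1.17 to 6.36 ± 0.519 FPKM, a log2 change of -1.22 ± 0.08. Slc1a4 went from 21.1 ± 0.876 to 11.6 ± 0.886. Slc7a5 was at 51.8 ± 1.39 and then 71.7 ± 5.29 FPKM, a log2 change of 0.46 ± 0.06 where siCtrl had 1.72 ± 0.10. It met the rule at 0.51 without siPRMT1 replicate 1 at 72 h. Slc7a1 was at 17.9 ± 0.839 and 19.1 ± 0.927, with overlapping libraries. Slc38a2, at -0.48, passed the limit at -0.52 without siPRMT1 replicate 3 at 24 h and at -0.53 without siPRMT1 replicate 1 at 72 h. Slc7a11 lost its call without siPRMT1 replicate 2 at 72 h, at -0.50, and Slc7a3 lost it without siPRMT1 replicate 1 or 3 at 24 h and without replicate 2 or 3 at 72 h.

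**Figure D3:**
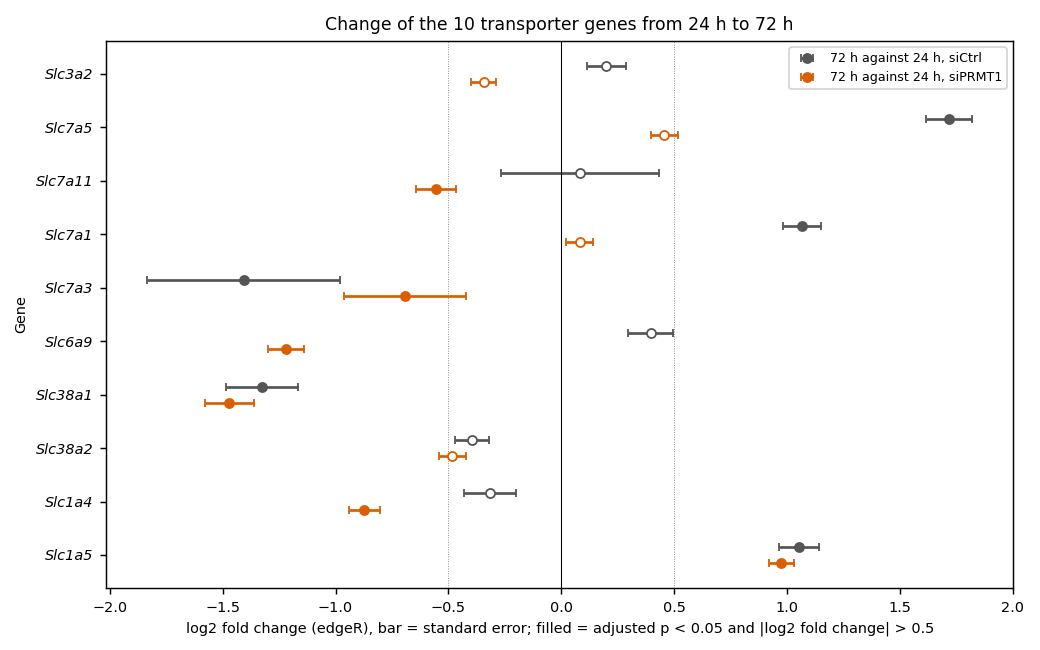
Log2 change from 24 h to 72 h (x axis, edgeR, bars are the standard error) of the 10 transporter genes (y axis) in siCtrl in grey and siPRMT1 in orange. Filled points met the call rule, and dotted lines mark a log2 change of 0.5 in either direction. The 2 points lie close together for Slc1a5 (1.05 and 0.98) and Slc38a1 (-1.33 and -1.47) and far apart for Slc7a5 (1.72 and 0.46) and Slc6a9 (0.40 and -1.22).

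By level, Slc38a2 was the most abundant of the 10 at 24 h in both groups, followed by Slc1a5, Slc3a2 and Slc7a5. At 72 h Slc1a5 came first in both groups, followed by Slc38a2, Slc7a5 and Slc3a2. Slc7a11, Slc38a1 and Slc7a3 were the lowest in all 4 groups, in that order. Neighbours in these orders did not overlap in FPKM, with 1 exception, Slc38a2 and Slc7a5 in siCtrl at 72 h, at 97.2 ± 4.55 and 89.5 ± 7.21. The FPKM of the 10 members together was 298 ± 9.10 in siCtrl and 363 ± 3.87 in siPRMT1 at 24 h, and 446 ± 8.25 and 390 ± 13.3 at 72 h. Slc38a2 made up 40.9% ± 3.35 of that sum in siCtrl and 34.5% ± 1.21 in siPRMT1 at 24 h, and at 72 h 21.8% ± 1.09 and 23.2% ± 1.75. The share of Slc7a5 was 8.69% ± 0.536 and 14.3% ± 0.282 at 24 h, and 20.03% ± 1.35 and 18.4% ± 0.781 at 72 h.

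Genes with the most similar pattern were found by the root mean square difference of centred log2 CPM, counts scaled to library size, over the 12 libraries. Genes averaging at least 1 CPM entered. Slc7a3 was below that level, so the mean pattern is that of the other 9 members. Of 12459 genes, the nearest to the mean pattern was Aars, the alanyl-tRNA synthetase, at a difference of 0.0771. It was at 94.6 ± 7.75 and 142 ± 4.27 FPKM in siCtrl and siPRMT1 at 24 h and 121 ± 6.73 and 108 ± 4.81 at 72 h. Next were Kmt2d at 0.0789, Elmo3 at 0.085, Tnfrsf22 at 0.0958 and Leprotl1 at 0.108. For single members, the nearest gene to Slc7a1 was Psph, the phosphatase that completes serine synthesis, at 0.0843, and the nearest to Slc3a2 was Nfe2l1, a transcription factor gene, at 0.0559. Slc7a5 was nearest to Parm1 at 0.147, Slc6a9 to P2rx3 at 0.176, Slc38a1 to Ifit2 at 0.128, Slc38a2 to Asph at 0.06, Slc1a4 to Mapk8ip3 at 0.0757 and Slc1a5 to Zxdc at 0.0437. Slc7a11 had no gene nearer than 0.282.

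Of 44 other amino acid transporter genes, 18 passed the filter at each time, but not the same 18. For the knockdown, Slc3a1 and Slc6a17 were tested only at 24 h, and Slc16a10 and Slc36a2 only at 72 h. At 24 h, 1 of the 18 was called, Slc1a3, a glutamate and aspartate transporter, at a log2 fold change of -0.67 ± 0.08 (edgeR adjusted p = 0.0036). Of all genes tested at that time, 1.95% were called higher and 1.61% lower. The median of the 18 was -0.10, where that of the members was 0.46. The members were chosen with these values known, so nothing is read from that gap. Without siCtrl replicate 3, 1 more of the other transporters was called, as higher. At 72 h, 4 of the 18 tested at that time were called lower and 1 higher, against 3.8% lower and 2.84% higher of all genes tested. Slc1a3 fell from 45.0 to 28.4 FPKM (means of 3 libraries each) and Slc36a2, a proton-coupled carrier of glycine and proline, had 36 to 71 counts in siCtrl and 15 to 26 in siPRMT1 (log2 fold change -1.51 ± 0.24, edgeR adjusted p = 0.00055). Slc36a2 had 0 counts in all 6 libraries at 24 h, where up to 3 counts per library are allowed by a count of 0. Slc16a10, a carrier of aromatic amino acids, and Slc43a1, a carrier of branched-chain amino acids, fell by 0.71 and 0.55 on the log2 scale (edgeR adjusted p = 0.0037 and 0.022). Slc7a2, the cationic carrier CAT2, rose by 1.03 ± 0.19 (edgeR adjusted p = 0.0021) from 0.12 to 0.15 FPKM in siCtrl to 0.25 to 0.31 in siPRMT1. The median of the 18 tested at 72 h was -0.05. Over the course in siCtrl, 7 of 20 were called higher and 7 lower, against 22.7% and 20.4% of all genes tested. In siPRMT1, 7 of 19 were called higher and 2 lower, against 19% and 17.4%.

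**Figure D4:**
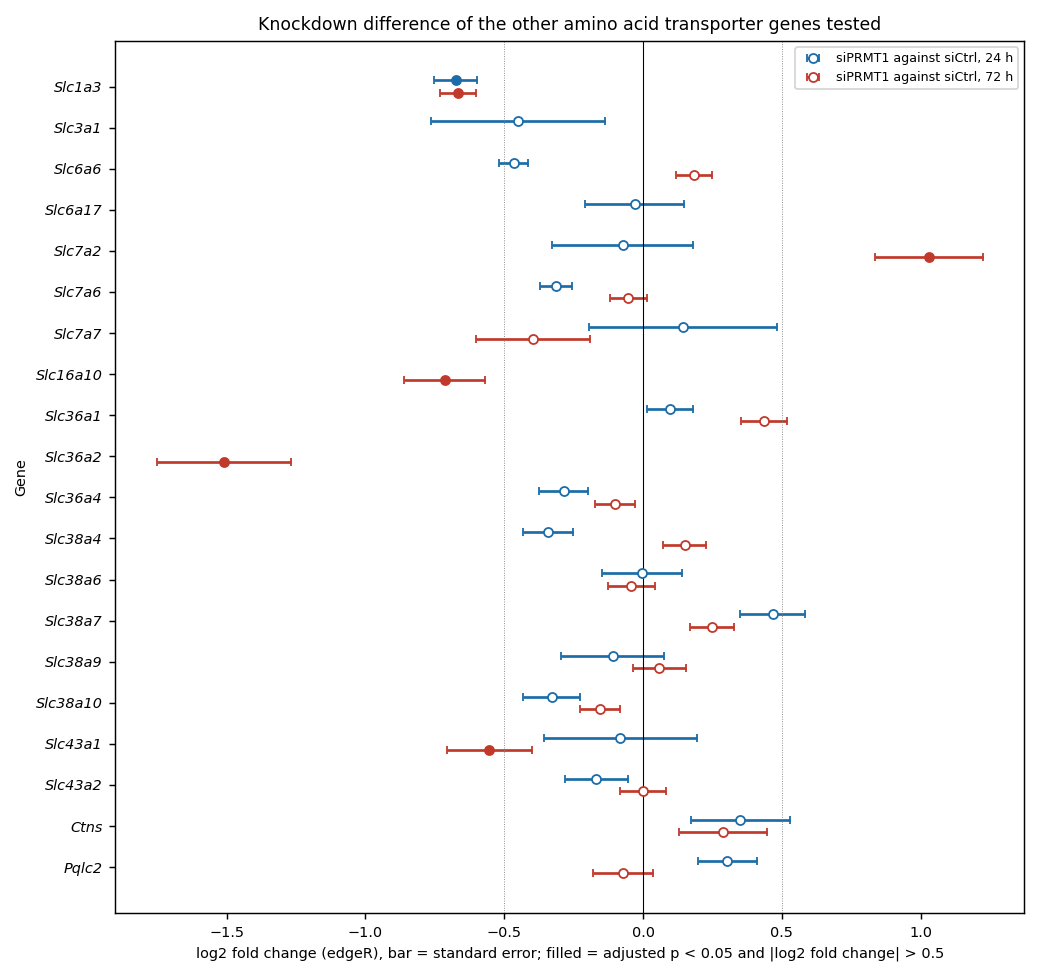
Log2 fold change of siPRMT1 against siCtrl (x axis, edgeR, bars are the standard error) for the other amino acid transporter genes that passed the filter on low counts (y axis), at 24 h in blue and 72 h in red. Filled points met the call rule, and dotted lines mark a log2 fold change of 0.5 in either direction. Slc1a3 is filled at both times, at -0.67 and -0.67, and no blue point lies beyond 0.5 on the right.

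Of 10 amino acid carriers of the mitochondrial membrane, 8 were tested. By edgeR 0 were called at 24 h and 0 at 72 h, with 2 at an unadjusted p under 0.05 at each time, and DESeq2 also called 0. How many of all genes lay under that unadjusted p was not counted. Their log2 fold changes ran from -0.23 to 0.24 at 24 h and from -0.37 to 0.08 at 72 h. Over the course in siCtrl, 5 of the 8 were called higher and 0 lower, against 22.7% and 20.4% of all genes tested. In siPRMT1, 4 of the 8 were called higher and 0 lower, against 19% and 17.4%. Slc25a22, a glutamate carrier, rose by 1.96 in siCtrl (edgeR adjusted p = 5.0e-07) and by 1.55 in siPRMT1 on the log2 scale, and Sfxn1 by 1.35 and 1.03.

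Other known targets and regulators of the amino acid response were read beside the members. Of the 30 listed, 29 were tested. At 24 h 11 were called higher and 0 lower in siPRMT1, against 1.95% and 1.61% of all genes tested. The median log2 fold change of the 29 was 0.41, with 26 above 0 and 3 below. Cebpg was the lowest at -0.44, with all siPRMT1 libraries below siCtrl, and Atf4 was at 0.20. Neither was called. Trib3, a pseudokinase that restrains ATF4, was at 14.5, 14.8 and 17.7 FPKM in siCtrl and 44.5, 48.9 and 50.5 in siPRMT1 (log2 fold change 1.57 ± 0.09, edgeR adjusted p = 0.00098). Chac1, which degrades glutathione, rose by 1.24, and Psph, Gpt2 and Ddit3 by 0.70, 0.69 and 0.69. At 72 h, 4 were called lower and 0 higher, against 3.8% and 2.84% of all genes tested. The 4 were Trib3 at -0.96, Nupr1 at -0.83, Ddit4 at -0.66 and Chac1 at -0.65 (edgeR adjusted p from 1.5e-06 to 7.6e-05). At that time 17 of the 29 had an unadjusted edgeR p under 0.05 in either direction, Vldlr among them as higher, at 0.23. At 24 h 26 did. How many of all genes lay under that unadjusted p was not counted, so nothing is read from these 2 counts. DESeq2 also called 4 at 72 h. In the fit of the difference between the times, 17 of the 29 were called, all lower. Of all genes tested in that fit, 8.24% were called in either direction. The median of the 29 was -0.67 where the members had -0.54. Over the course in siCtrl 11 were called higher and 0 lower, against 22.7% and 20.4% of all genes tested. In siPRMT1 2 were called higher and 7 lower, against 19% and 17.4%. This list was chosen with earlier results of these data known, so its direction is not independent evidence.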

How the data were processed

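RNA-seq libraries of mouse 3T3-L1 cells were read from the tables that the authors deposited, 1 of whole-number read counts per gene and 1 of FPKM per gene. The submitters' processing notes name cutadapt 1.11, HISAT2 2.1.0, RSEM 1.2.6 and the mm10 build, and the step that made the counts, its strand setting and its treatment of reads with several matches are not given in the sources used here. Deposited FPKM values are scaled to depth and to the gene length in the count table. Recomputed in that way, they differed by at most 0.005. Levels compared between genes rest on these lengths, such as 6031 bases for Slc3a2 and 3513 for Slc7a5. Whether the lengths match the transcripts these cells made was not tested. Counts were tested here in R 4.3.3 with edgeR 4.0.16 (TMM, filterByExpr, quasi-likelihood F test, Benjamini-Hochberg adjustment over all genes tested), within the pair of groups compared and over all 12 libraries for the difference between times. Genes were called where the adjusted p was below 0.05 and the log2 fold change passed 0.5 in size. Standard errors were obtained by dividing the absolute log2 fold change by the root of its F statistic. Alternatives were DESeq2 1.42.0, RLE scaling, 2 other filters on low counts (none, or at least 10 counts), 1 model over 12 libraries, a replicate block, no fold threshold, each library left out, and limma 3.58.1 on log2(FPKM + 1) or log2(FPKM + 0.1). The members and the gene lists were chosen with earlier results of these data known. Named were the members, Prmt1, up to 5 called genes of each list and comparison with the smallest p, and the nearest genes by pattern. Atf4, Cebpg and Vldlr were named outside that rule. Values of Slc66a1 stand under its older symbol Pqlc2. The edgeR and DESeq2 fits of the knockdown at 24 h and of the difference between times were tested on simulated counts with known changes. The other fits and steps were not tested in this way. Coordinates are those of the deposited table, and promoter sequence is from RefSeq on GRCm38.p6. The authors' own columns of gene annotation were used for length and place.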

Additional observations from a re-analysis of the deposited data

Results flagged for a closer look

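The knockdown difference at 72 h minus that at 24 h met the call rule for 5 of the 10 members. It did so for 3 of the 20 other transporters tested and for 17 of the 29 amino acid response genes tested. Of all 14612 genes tested, 8.24% met it in either direction. The members and the response list were chosen with these data known, so their values are a description. On the log2 scale they were -1.612 for Slc6a9, -1.254 for Slc7a5, -0.9789 for Slc7a1, -0.5489 for Slc1a4 and -0.5369 for Slc3a2. For the 3 other transporters called the difference was positive, at 0.6705 for Slc6a6, a taurine transporter, 0.5111 for Slc38a4 and 1.129 for Slc7a2 (edgeR adjusted p = 7.9e-05, 0.010 and 0.030). Slc38a4 was just past the 0.5 limit and was called at neither time alone, at -0.34 at 24 h and 0.15 at 72 h. Slc7a2 was low, with 16 to 29 counts in siCtrl at 72 h. Slc6a6 was at 88.6, 90.8 and 91.2 FPKM in siCtrl and 69.6, 67.1 and 66.1 in siPRMT1 at 24 h, and at 64.2, 63.7 and 64.5 against 69.2, 74.2 and 75.9 at 72 h. Among the amino acid response genes, the 5 with the smallest p were Trib3 at -2.502, Chac1 at -1.875, Gpt2 at -1.118, Nupr1 at -1.308 and Psph at -0.9302.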

How the results depend on the processing

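Of 779 recomputed member values, 15 took the other sign, none of them called. Without the fold threshold, 5 members were called for knockdown at 72 h and 8 over the siCtrl course. Other transporters then gave 4 at 24 h and 15 over the siPRMT1 course. Mitochondrial carriers gave 1 at 72 h, 2 for the difference between times and 8 over each course, and response genes gave 20 at 24 h, 14 at 72 h, 22 over the siCtrl course and 24 over the siPRMT1 course. With limma on log2(FPKM + 1), 0 members were called at 72 h, 3 over each course, and of the other transporters 1 at 72 h, 1 for the difference, and 3 and 4 over the siCtrl and siPRMT1 courses. With 0.1 added, 0 members were called at 72 h and 3 over the siCtrl course, and of the other transporters 2 at 24 h, 1 at 72 h, 1 for the difference, 5 and 4. With 1 added and no filter, 0 members were called at 72 h and 3 over the siCtrl course, and of the other transporters 2 at 72 h and 7 over the siCtrl course. An added pseudocount makes the fold changes of low genes smaller by its construction. With a minimum of 10 counts, 7 other transporters were called over the siCtrl course. Leaving out 1 library gave 3 to 6 members at 24 h (3 without siPRMT1 replicate 1, 6 without siCtrl replicate 1) and 1 to 2 at 72 h (2 without siCtrl or siPRMT1 replicate 3). Other transporters ranged from 1 to 2 at 24 h and 1 to 3 for the difference (1 without siCtrl replicate 1 at 24 h), and mitochondrial carriers from 0 to 1 for the difference (1 without siCtrl replicate 3 at 24 h). Same-numbered libraries correlated in their deviations from the group means between -0.17 and 0.22, so the numbers were not taken as pairs. With a replicate block, 5 members were called at 24 h and 1 at 72 h, as without it. Slc7a3, with 4 to 45 counts, is limited by depth.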
